A study of Mus musculus with 8 samples.

Results

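The genes described here encode the enzymes of one-carbon metabolism and of purine and pyrimidine synthesis. They were taken by symbol from a list of 37 genes, which was chosen with earlier results of these data known. A gene was counted as measured where at least 1 row of the array table carried its symbol alone. This held for 35 of the 37 genes, with 80 probe sets, of 18193 genes in all. Mat2a, which makes S-adenosylmethionine, and Impdh2, an isoenzyme of the guanine branch, had no probe set with a single symbol and were not analysed here.

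NIH3T3, a mouse embryonic fibroblast cell line, was the source of the RNA on all 8 Affymetrix arrays. All cells carried the reporters mVenus-p27K- and mCherry-hCdt1(30/120). P27 is an inhibitor of cyclin-dependent kinases that is abundant in quiescence, while the fragment of Cdt1 accumulates in G0 and G1 and is degraded from S phase on. All cells were deprived of serum and then kept for 5 h in 10% serum. Cells positive for mVenus and mCherry were sorted as G0 (4 arrays), and cells negative for mVenus and positive for mCherry as G1 (4 arrays). Whether each replicate was its own culture is not in the labels. The p-values therefore reflect only how these samples scatter, and that scatter may be technical. Both groups carry the same transgenes and the same serum history, and sorting rested on the reporters alone.

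These pathways supply the building blocks of RNA and DNA. Serine, made from a glycolytic intermediate, gives a carbon to tetrahydrofolate, in the mitochondrion and in the cytosol, and folate carries that carbon to the purine ring, to thymidylate and to methionine. The purine ring is built step by step on phosphoribosyl pyrophosphate (PRPP) up to inosine monophosphate (IMP), which then branches to adenine and guanine nucleotides. The pyrimidine ring is built first and joined to PRPP afterwards. Cells leaving quiescence are known to raise nucleotide synthesis, in part through enzyme activity rather than transcript level.

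The deposited values are on a log scale, with the base taken as 2, and each probe set is centred on its own median of the 8 arrays. They measure differences between arrays and hold no absolute levels. For the same reason the fibroblast identity of the line could not be checked by level. Of 7 leukocyte markers and 8 epithelial and endothelial markers, 0 passed the test between the groups at an adjusted p under 0.05 in limma, with 3 leukocyte markers lower in G1 and 1 endothelial marker higher at an unadjusted p under 0.05. Array medians lay between −0.07 and 0.09. The poly-A controls, spiked-in bacterial transcripts, had a median of −6.22 on G0 replicate 3 and −6.09 on G1 replicate 4, against −0.13 to 0.59 on the other 6 arrays. The labels instead put replicate 4 of each group in a labelling batch of its own. Whether G0 replicates 3 and 4 carry each other's number could not be settled, and if they do, labelling batch 2 as used here holds a G0 array of the other batch. The fit therefore used the labelled batch as covariate, and a second fit used the batch that the spike-ins show.

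None of the 35 measured genes passed at an adjusted p under 0.05 in limma, in either fit. Over all genes, 0.5% passed as higher in G1 and 0.022% as lower in the fit with the labelled batch, and 0.929% and 0.077% in the fit with the spike-in batch. The differences were small and mostly of 1 sign: 31 of the 35 lay above 0, against 44.7% of all genes. The median log2 difference, G1 minus G0, was 0.29 (1.22-fold) over the 35 genes and −0.06 over all genes. Within labelled batches 1 and 2 this median came to 0.30 and 0.37, and within each spike-in batch to 0.26. At an unadjusted p under 0.05 in limma, 6 of the 35 (17.1%) were higher in G1 and 0 lower, where 4.33% and 3.74% of all genes were. The spike-in batch fit gave 10 higher and 0 lower, where 6.04% and 6.37% of all genes were. This unadjusted count moved with single arrays: it was 3 without G0 replicate 1, G0 replicate 4 or G1 replicate 4, 1 without G1 replicate 1, 9 without G0 replicate 3, and 4 without G1 replicate 2 or G1 replicate 3. In 8 of the 35 (22.9%) the 4 G1 values all lay above the 4 G0 values, against 3.79% of all genes, and in 1 all lay below, against 3.28%. The median SE of the fit was 0.24 for the 35 genes and 0.42 for all genes. The shares therefore compare genes of unlike scatter, and their excess was not tested.

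**Figure D1:**
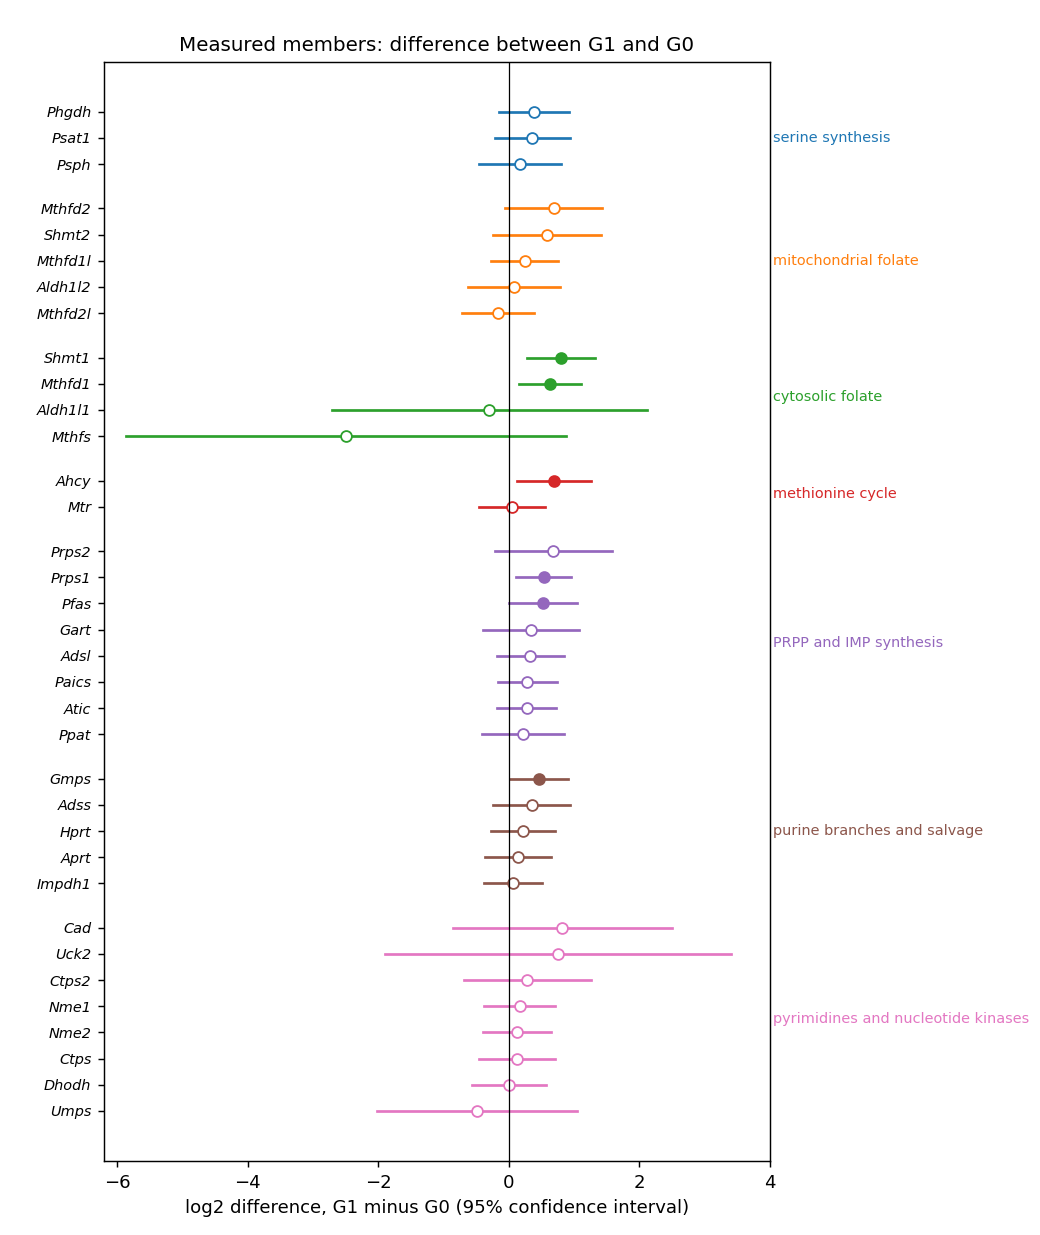
Log2 difference, G1 minus G0, of the 35 measured genes (points) with 95% confidence intervals from the limma fit with the labelled batch (n = 4 arrays per group), coloured by sub-pathway. Filled points have an unadjusted p under 0.05, which applies to 6 genes, and 31 of the 35 points lie above 0.

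Promoter sequence was read for 32 of the 35 genes (40 starts) in RefSeq's GRCm38.p6 table, from 250 bases before to 50 after each start. On both strands, the Myc and Max E-box CACGTG was found at 10.0% of these 40 starts and at 7.15% of all 32851 starts. The ATF4 element TGATGCAA was found at 0 of them (0.895% of all), as were the E2F forms TTTGGCGC (0.514% of all) and TTTCGCGC (0.323% of all). With shares this low over all starts, the lack of a match at 40 starts says little about these genes. Counted by gene, the E-box share was 9.38% of the 32 and 8.09% of all genes, as Nme1 counts more than once by start. The E-box was present in Paics, Atic and Nme1 and in no other of the 32 genes. Their differences were 0.29, 0.28 and 0.17, and none was among the 6 with an unadjusted p under 0.05. These stretches, on the strand of the gene, show the E-box in capitals where there is one, and Shmt1 as the gene with the lowest unadjusted p. That of Paics is a 30-base window whose E-box begins 203 bases before its start (chr5:76951087-76951116, plus strand). Those of Atic (chr1:71557036-71557155, plus strand), Nme1 (chr11:93968273-93968392, minus strand) and Shmt1 (chr11:60811266-60811385, minus strand) are the 120 bases before the start, with the E-box beginning 7 bases before it in Atic and 18 before it in Nme1.
Paics: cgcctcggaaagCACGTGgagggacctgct
Atic: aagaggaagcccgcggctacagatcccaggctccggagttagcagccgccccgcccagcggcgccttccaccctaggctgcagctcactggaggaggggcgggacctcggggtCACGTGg
Nme1: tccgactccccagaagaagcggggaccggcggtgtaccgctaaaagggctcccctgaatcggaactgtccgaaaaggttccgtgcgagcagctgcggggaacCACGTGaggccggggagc
Shmt1: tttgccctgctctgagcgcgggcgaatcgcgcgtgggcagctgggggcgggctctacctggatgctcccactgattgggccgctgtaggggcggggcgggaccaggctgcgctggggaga
A match is a string of letters and shows no binding.

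In the labelled-batch fit, the 2 lowest unadjusted p of the 35 genes belonged to cytosolic folate enzymes. Shmt1, the cytosolic serine hydroxymethyltransferase that moves a carbon from serine to folate, read −0.50, −0.54, −0.81 and −0.14 on G0 replicates 1 to 4 and 0.21, 0.14, 0.47 and 0.39 on G1 replicates 1 to 4. Every G1 array lay above every G0 array. The mean was −0.50 ± 0.27 in G0 and 0.30 ± 0.15 in G1 (SD, n = 4), a log2 difference of 0.80 (1.74-fold, SE 0.22, 95% confidence interval 0.28 to 1.32). Its p in limma was 0.00828 unadjusted and 0.397 adjusted. The spike-in batch fit gave an adjusted p of 0.197. All 4 Shmt1 probe sets were higher in G1, the other 3 by 0.91, 0.99 and 1.41, so the size did not rest on a single probe set. The within-batch differences were 0.89 and 0.53 in the labelled batches and 0.67 and 1.19 in the spike-in batches.

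Mthfd1, the trifunctional enzyme that interconverts the cytosolic folate forms and makes formyl-folate for purines, read −0.18, −0.27, −0.17 and −0.30 in G0 and 0.74, 0.28, 0.17 and 0.41 in G1. The G0 arrays were tightly grouped and lay below all G1 arrays. G1 exceeded G0 by 0.63 (1.55-fold, SE 0.20, 95% confidence interval 0.15 to 1.11, limma adjusted p = 0.520), and all 3 of its probe sets were positive.

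The other cytosolic members had wide intervals. Mthfs, which returns 5-formyl-folate to the active pool, read 0.38, 0.16, 0.73 and 0.06 in G0 and −0.06, −3.78, −4.54 and −0.23 in G1. G1 replicates 2 and 3 were far below the rest, and all G1 values lay below all G0 values. Its log2 difference of −2.49 had an SE of 1.44 and a 95% confidence interval of −5.86 to 0.89 (limma adjusted p = 0.802), on its only probe set. Aldh1l1, the formyl-folate dehydrogenase, differed by −0.30 with an interval of −2.71 to 2.12, and its other probe set by 0.91. The median of the 4 genes was 0.17. It was below 0, between −0.15 and −0.07, without G0 replicate 1, G1 replicate 2, or replicate 4 of either group (labelling batch 1 only). It was 0.72 over the pair of members with an SE of 0.5 or less, a setting chosen after seeing the data.

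In the mitochondrial arm, Mthfd2 and Shmt2 had the larger differences. Mthfd2, the mitochondrial dehydrogenase and cyclohydrolase known to be high in proliferating and embryonic cells, read −0.75, 0.10, −0.87 and −0.25 in G0 and 0.07, 0.65, 0.33 and −0.07 in G1. G0 replicate 2 lay above G1 replicates 1 and 4, so the groups overlapped. On average G1 exceeded G0 by 0.69 (1.61-fold, SE 0.32, limma adjusted p = 0.722), and 0.83 on its other probe set. Shmt2, the mitochondrial serine hydroxymethyltransferase, differed by 0.58 (SE 0.35, adjusted p = 0.815), with all 4 probe sets between 0.01 and 0.59. Mthfd1l, the mitochondrial formyl-folate synthetase, differed by 0.25 and Aldh1l2 by 0.08. Mthfd2l, the isoenzyme of Mthfd2, read −0.01, 0.23, −0.20 and 0.02 in G0 and −0.27, 0.15, 0.01 and −0.50 in G1, with overlap. It differed by −0.16 (95% confidence interval −0.71 to 0.38). The difference was −0.04 without G0 replicate 4 or G1 replicate 4, either of which leaves labelling batch 1 only. It was −0.10 without G0 replicate 2 or G1 replicate 1, −0.25 without G1 replicate 2 and −0.26 without G0 replicate 3. Mthfd2l was negative on all 4 of its probe sets, the only gene with several probe sets for which this held. The median of the 5 genes was 0.25, and it was −0.29 within labelling batch 2, which has 1 array per group. Within spike-in batch 2, also with 1 array per group, it was 0.27.

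The serine synthesis enzymes were all positive and small. Phgdh, which commits 3-phosphoglycerate to serine, read −0.53, −0.17, −0.03 and −0.46 in G0 and 0.03, 0.06, 0.05 and 0.23 in G1. The groups did not overlap, but G0 replicate 3, at −0.03, lay close to G1 replicate 1, at 0.03. The log2 difference was 0.39 (1.31-fold, SE 0.23, 95% confidence interval −0.15 to 0.92, limma adjusted p = 0.808). All 4 Phgdh probe sets end in _x_at, the array maker's mark for probes that may cross-hybridise, and they ran from 0.26 to 0.43. Psat1, the aminotransferase of the next step, differed by 0.37 (adjusted p = 0.832) and Psph, the phosphatase that releases serine, by 0.18 (adjusted p = 0.955). Within labelling batch 2 the median of the 3 genes was −0.03, and within spike-in batch 2 it was 0.26, against 0.37 over all arrays.

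In the methionine cycle, Ahcy, which hydrolyses S-adenosylhomocysteine after methyl transfer, read −0.58, −0.11, −0.69 and −0.23 in G0 and 0.52, 0.38, 0.11 and 0.14 in G1. All G1 values lay above all G0 values. The log2 difference was 0.69 (1.62-fold, SE 0.24, 95% confidence interval 0.13 to 1.26, limma adjusted p = 0.583) on its only probe set. Mtr, methionine synthase, which passes the folate carbon to homocysteine, differed by 0.05 (95% confidence interval −0.46 to 0.56).

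**Figure D2:**
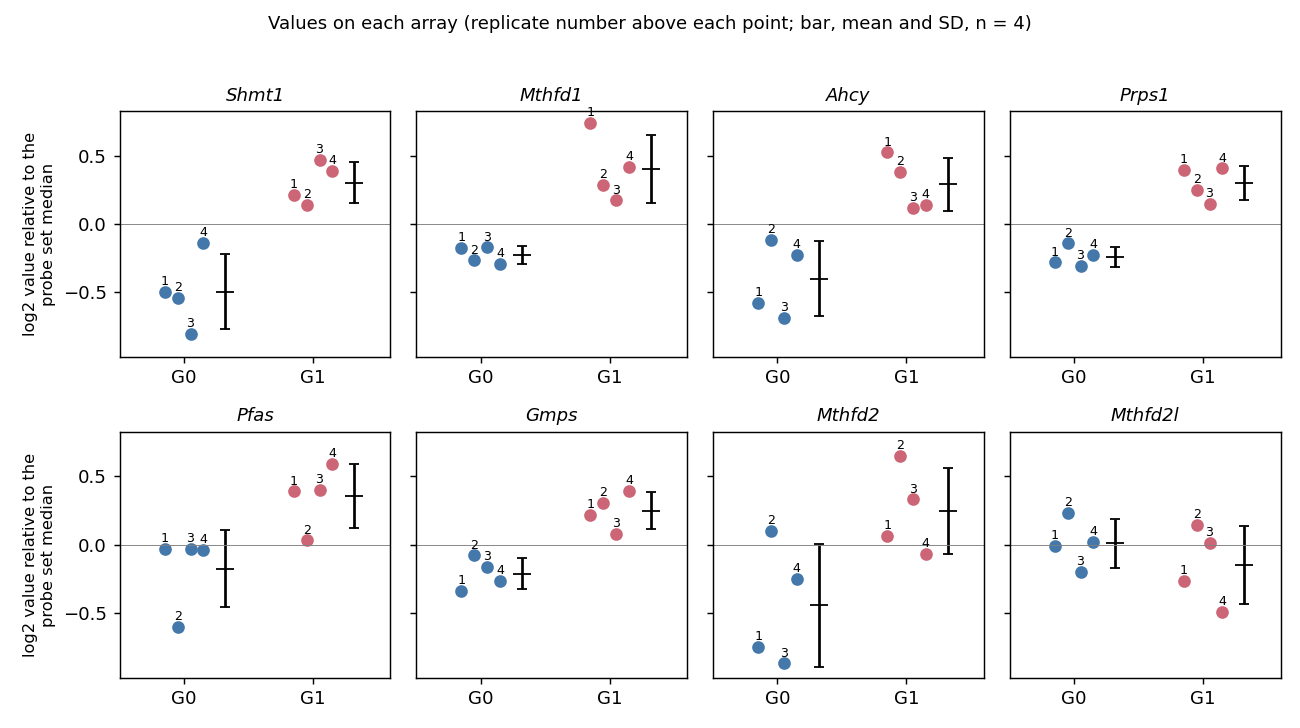
Log2 value relative to the probe set median on each array for the 6 genes with an unadjusted p under 0.05 and for Mthfd2 and Mthfd2l. Points carry the replicate number, and bars give mean and SD (n = 4). G1 lies above G0 without overlap in Shmt1, Mthfd1, Ahcy, Prps1, Pfas and Gmps, and overlaps G0 in Mthfd2 and Mthfd2l.

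For the enzymes that make PRPP and IMP all 8 differences were positive, between 0.21 and 0.69, with a median of 0.34 (1.26-fold). Prps1, a PRPP synthetase, read −0.28, −0.14, −0.31 and −0.23 in G0 and 0.39, 0.25, 0.14 and 0.41 in G1. The groups were apart and each was narrow. G1 exceeded G0 by 0.54 (1.45-fold, SE 0.18, 95% confidence interval 0.11 to 0.96, limma adjusted p = 0.553).

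Prps2, the second PRPP synthetase, read −0.52, −0.75, 0.54 and −0.52 in G0 and 0.33, 0.06, −0.06 and 1.18 in G1. G0 replicate 3 and G1 replicate 4, the arrays without spike-in signal, were the highest of their groups. The log2 difference was 0.69 with an SE of 0.38 (limma adjusted p = 0.787), while the spike-in batch fit gave an SE of 0.15 and an adjusted p of 0.142, the lowest of the 35 genes in that fit. Its difference was 0.35 without G0 replicate 4 or G1 replicate 4 (either leaves labelling batch 1 only), and 1.02 without G0 replicate 3. All 3 Prps2 probe sets were positive.

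Pfas, which catalyses the fourth step of the purine ring, read −0.03, −0.60, −0.03 and −0.04 in G0 and 0.39, 0.03, 0.40 and 0.59 in G1. G0 replicate 2 was low, and the other G0 arrays lay just under G1 replicate 2. G1 exceeded G0 by 0.53 (1.44-fold, SE 0.22, limma adjusted p = 0.680). Ppat, the amidotransferase that commits PRPP to purines, differed by 0.21 (95% confidence interval −0.41 to 0.84), and Gart, which acts at steps either side of Pfas, by 0.34. The later enzymes Paics, Adsl and Atic differed by 0.29, 0.33 and 0.28, with adjusted p of 0.835, 0.830 and 0.845 in limma. Atic, which uses formyl-folate to close the ring, had no overlap between the groups. However, G0 replicate 2, at −0.006, lay close to G1 replicate 2, at 0.006. On its other probe set, 1452811_at, the groups overlapped, with a difference of 0.20 and an SE of 0.47.

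After IMP, Gmps of the guanine branch had the largest difference of the 5 genes, and Impdh1 of the same branch the smallest. Gmps, which aminates xanthosine monophosphate to GMP, read −0.34, −0.08, −0.16 and −0.26 in G0 and 0.22, 0.31, 0.08 and 0.39 in G1, with no overlap. The log2 difference was 0.46 (1.38-fold, SE 0.19, 95% confidence interval 0.02 to 0.90, limma adjusted p = 0.673), and all 3 probe sets were positive. Impdh1, the dehydrogenase that precedes it, differed by 0.07 (95% confidence interval −0.38 to 0.51). Adss, the first enzyme of the adenine branch, differed by 0.35 (adjusted p = 0.851). The salvage enzymes Hprt and Aprt, which rebuild nucleotides from free bases, differed by 0.22 (95% confidence interval −0.27 to 0.70) and 0.15 (−0.36 to 0.65). Hprt is often used as a reference gene, and this interval allows a change of up to 0.70. The median of the 5 genes was 0.22, with −0.01 within labelling batch 2 and 0.22 within spike-in batch 2.

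The pyrimidine enzymes and nucleotide kinases had a median of 0.15 over 8 genes, and 0 had an unadjusted p under 0.05 in limma. Cad, which performs the first steps of the pyrimidine ring, read −0.49, −1.60, 1.34 and −0.77 in G0 and 0.49, −0.87, 0.81 and 1.33 in G1. The groups overlapped over most of their range. The difference of 0.82 had a 95% confidence interval of −0.86 to 2.50 (limma adjusted p = 0.891). Without single arrays it ranged from 0.39 to 1.46. The lowest came without G0 replicate 4 or G1 replicate 4, which leaves labelling batch 1 only, and the highest without G0 replicate 3. Leaving out replicate 2 of G0 gave 0.42, and leaving out replicate 2 of G1 gave 1.25. Its other probe sets differed by 0.30 and 0.32 with SEs of 0.24 and 0.27. Dhodh, the mitochondrial step, differed by 0.01 (−0.56 to 0.58).

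For Umps, which makes uridine monophosphate, the probe sets disagreed. The one chosen by the fixed rule, 1431652_at, differed by −0.49 with an SE of 0.66. The other 3 differed by 0.33, 0.50 and 1.06. The last of these, 1455832_a_at, read −0.62, −0.32, −1.13 and −0.44 in G0 and 0.51, 0.52, 0.38 and 0.32 in G1, with no overlap (SE 0.26, limma unadjusted p = 0.00406, adjusted p = 0.291). It was named after its values were seen. The mean of all 4 Umps probe sets differed by 0.35.

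Ctps and Ctps2, the CTP synthetases, differed by 0.13 and 0.29. Uck2, a uridine and cytidine kinase, differed by 0.76 with an interval of −1.89 to 3.42, and by 0.13 as the mean of its 6 probe sets. Nme1 and Nme2, the diphosphate kinases, differed by 0.17 (−0.37 to 0.71) and 0.13 (−0.39 to 0.65).

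Over all 80 probe sets of the 35 genes, 71 were positive (44.1% of all probe sets with a single symbol were), 13 had an unadjusted p under 0.05 with G1 higher (3.92% of all) and 0 with G1 lower (3.63% of all). In 13 of the 80 the G1 values all lay above the G0 values (3.49% of all). Probe sets of the same gene are not independent, and every Shmt1 probe set was among those with an unadjusted p under 0.05 in limma. These shares are therefore not separate from the counts by gene. Of the 22 genes with more than 1 probe set, 17 were positive on all of them and 4 had both signs: Aldh1l1, Umps, Ctps2 and Uck2. The SE of the fit was over 0.5 for 5 genes (Mthfs, Aldh1l1, Cad, Umps and Uck2). Of the other 30 genes 29 were positive, with a median of 0.29. The 95% confidence interval lay wholly within 1 log2 unit of 0 for 21 of the 35.

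The median differences of the sub-pathways lay between 0.15 and 0.37. On single arrays the median of the PRPP and IMP genes lay between −0.26 and −0.08 for G0 and between 0.09 and 0.33 for G1, with no overlap. That of the pyrimidine genes lay between −0.20 and 0.03 for G0 and between 0.00 and 0.17 for G1, with overlap. The median over all 35 genes was −0.26, 0.00, −0.17 and −0.22 on the G0 arrays and 0.11, 0.14, 0.10 and 0.00 on the G1 arrays, so G0 replicate 2 and G1 replicate 4 met near 0. G0 replicate 3 was the highest or the lowest G0 array in 25 of the 35 genes, and G1 replicate 4 the highest or the lowest G1 array in 25. The share over all genes is not given here, so these counts cannot be called particular to the 35. Without G0 replicate 3 the difference of Prps2 was 1.02 and that of Cad 1.46, against 0.69 and 0.82 on all arrays. Without G1 replicate 4 they were 0.35 and 0.39. G0 replicate 4 is then absorbed by the batch covariate, so these are the values of labelling batch 1, without both arrays.

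**Figure D3:**
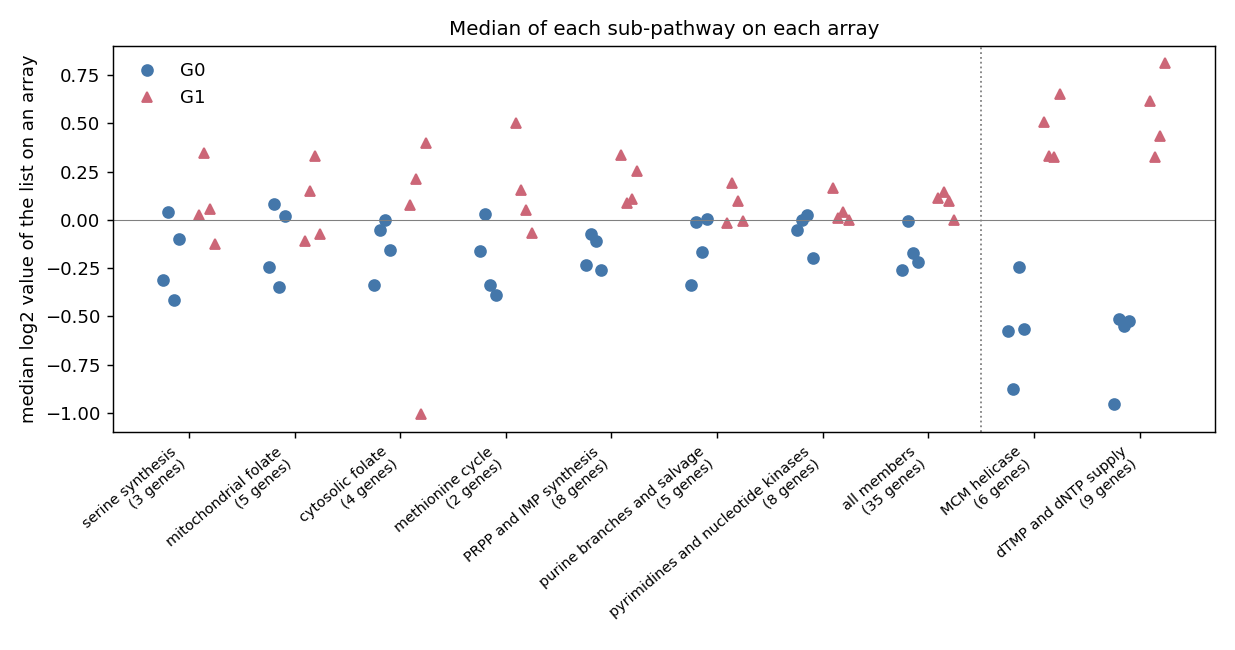
Median log2 value of the genes of each sub-pathway on each array (circles G0, triangles G1), with the MCM helicase genes and the dTMP and dNTP supply genes at the right of the dotted line. The medians of the 35 genes lie between −0.26 and 0.14, the lowest sub-pathway median is −1.01, for cytosolic folate on G1 replicate 3, and those of the dTMP and dNTP supply genes between −0.95 and 0.81.

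The genes of dTMP and dNTP supply, 8 of 9 of them above 0, had a larger median difference on the same arrays. Of 9 measured genes of dTMP and dNTP supply, 2 were higher in G1 at an adjusted p under 0.05 in limma and 0 lower, and the median difference was 1.62. Tk1, thymidine kinase, was 6.05-fold higher (2.60, SE 0.34, adjusted p = 0.0327) and Rrm1, a ribonucleotide reductase subunit, 3.23-fold higher (1.69, SE 0.20, adjusted p = 0.0219). The 6 MCM helicase genes, markers of licensing for S phase, had a median of 0.81, with 0 past the adjusted threshold and 5 at an unadjusted p under 0.05. The spike-in batch fit put 2 MCM genes past the adjusted threshold, Mcm5 (1.30, adjusted p = 0.0290) and Mcm7 (1.20, adjusted p = 0.0341), and 4 genes of dTMP and dNTP supply, adding Rrm2 and Dck. The 7 measured housekeeping references had a median of −0.02. One of them, Actb, named after its values were seen, read −3.54 on G0 replicate 3 and −3.74 on G1 replicate 4. Those are the arrays without spike-in signal, and on the other arrays Actb lay between −0.06 and 0.09. Its difference of −0.05 had an SE of 1.47, and the cause was not tested. The difference between these lists and the 35 genes was not tested.

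The other genes of these pathways had medians below 0, as all genes did (44.7% positive, median −0.06), and the difference from all genes was not tested. Of 18 genes of folate transport and other one-carbon steps, 6 were positive and the median was −0.18, and 0 passed at an adjusted or an unadjusted p under 0.05 in limma. Of 15 genes of purine interconversion and breakdown, 4 were positive, the median was −0.10, 0 passed after adjustment, and an unadjusted p under 0.05 with G1 lower was found for 2. These were Xdh, which oxidises purine bases to uric acid (−0.98, SE 0.33, adjusted p = 0.553), and Ampd3, an AMP deaminase (−0.76, SE 0.23, adjusted p = 0.464). Of 11 genes of pyrimidine salvage and breakdown, 4 were positive, with a median of −0.11, and 0 passed after adjustment, with 1 higher at an unadjusted p under 0.05. Xdh and Ampd3 were named after their values were seen.

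Of the known regulators of these enzymes, the transcripts of Myc and Atf4 did not pass, which does not show that they were unchanged. Myc, which activates many nucleotide synthesis genes, differed by −0.25 (SE 0.32, limma adjusted p = 0.945). Atf4, which induces serine and mitochondrial folate enzymes when amino acids are short, differed by −0.40 with an interval of −2.39 to 1.58. In the list of Atf4 and its amino acid response targets, 7 of 18 were positive, the median was −0.02, with G1 lower for 3 at an unadjusted p under 0.05 in limma. One of them, Vldlr, a lipoprotein receptor, differed by −2.18 (SE 0.36, limma adjusted p = 0.0779, or 0.0413 in the spike-in batch fit).

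Isoenzymes of 1 reaction were compared within arrays, by subtracting the value of one from that of the other, for the 7 of 8 fixed pairs in which both were measured. Mthfd2 minus Mthfd2l was −0.74, −0.13, −0.67 and −0.27 on the G0 arrays and 0.33, 0.51, 0.32 and 0.43 on the G1 arrays. All G1 arrays lay above all G0 arrays, although each gene alone overlapped. The pair shifted by 0.85 (G0 −0.45 ± 0.30, G1 0.40 ± 0.09, SD, n = 4; exact permutation test, two-sided, p = 0.0286, the smallest this design can give, and 0.20 after Benjamini-Hochberg adjustment over 7 pairs). Averaging all probe sets of each gene gave 0.96, and leaving out single arrays gave 0.76 to 0.96.

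In the remaining pairs the exact permutation p ran from 0.114 to 0.80. Mthfd1 minus Mthfd1l shifted by 0.39 (exact p = 0.114, n = 4 per group). Shmt1 minus Shmt2 shifted by 0.22 (exact p = 0.686), and by 0.60 with the mean of all probe sets (exact p = 0.0286, 0.10 adjusted over the pairs). Nme1 minus Nme2 shifted by 0.04, Prps1 minus Prps2 by −0.15, Ctps minus Ctps2 by −0.16 and Aldh1l1 minus Aldh1l2 by −0.38. On G0 replicate 3 and G1 replicate 4, Prps1 minus Prps2 was −0.85 and −0.77 and Ctps minus Ctps2 −1.25 and −1.32, the lowest of their groups in each case.

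**Figure D4:**
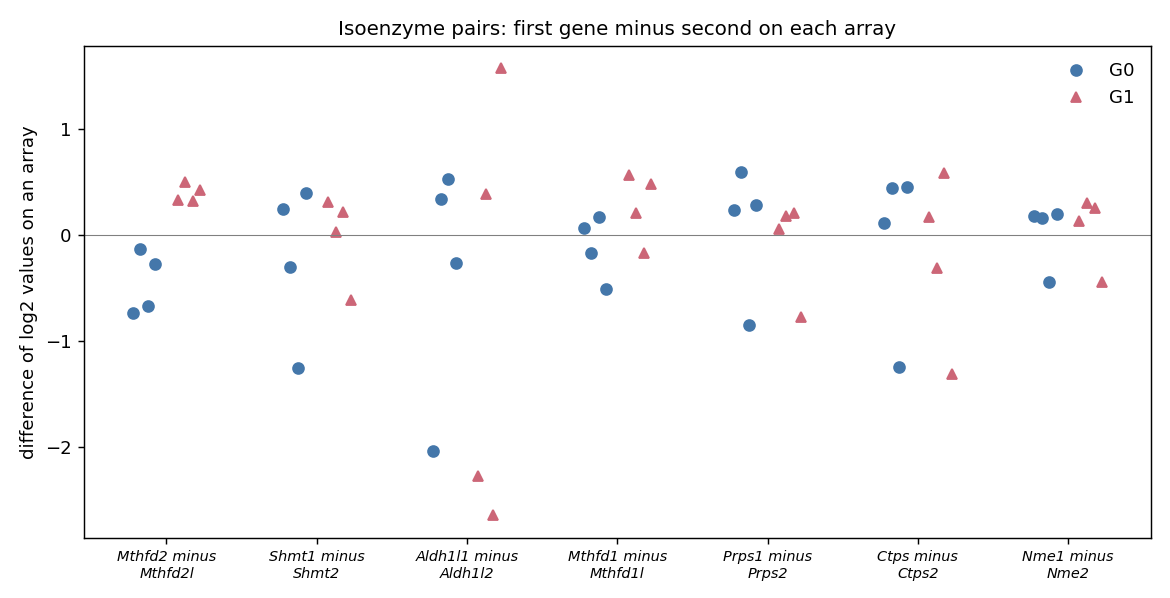
Difference between the log2 values of the isoenzymes of a pair on each array (circles G0, triangles G1). In Mthfd2 minus Mthfd2l the G1 arrays lie between 0.32 and 0.51 and the G0 arrays between −0.74 and −0.13, and in the other 6 pairs the groups overlap.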

How the data were processed

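RNA of 4 G0 and 4 G1 samples was measured on Affymetrix arrays. The submitters' processing notes name MAS5. The deposited values were read as log2. The values themselves show that each probe set was centred on its median over the 8 arrays (largest absolute median 5e-07). The log base is not stated, and 2 was inferred from the range of the values. Per the labels' protocols, replicate 4 of each group was labelled with protocol revision 3 and the others with revision 8. No further scaling and no filter on level was applied, since levels are lost.

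Of 45101 probe sets, 64 controls were left out. Symbols were updated through Entrez identifiers. A gene was represented by 1 probe set, chosen by suffix, in the order _at, _a_at, _s_at, _x_at, with ties going to the lowest number. G1 minus G0 was fitted over 45037 probe sets with limma 3.58.1 in R 4.3.3 (lmFit, eBayes with trend, labelling batch as covariate, 5 residual and 2.34 prior degrees of freedom, Benjamini-Hochberg adjustment). The other fit used the batch of the spike-ins. A run on simulated data planted larger changes than those of nearly all genes described here, so it does not test the fit at their size. Isoenzyme pairs used an exact permutation test. Per-array values were given for genes with an unadjusted p under 0.05, the largest difference of each sub-pathway, and pairs with a permutation p under 0.05. Myc, Atf4 and context genes past the threshold in either fit could also be named. Arrays of the same titled replicate number had correlations of deviations of 0.07 and 0.11 (replicates 1 and 2) and −0.14 (replicates 3 and 4). As G0 replicates 3 and 4 may carry each other's number, this cannot show whether arrays were paired. Members, lists and tests were chosen with earlier results of these data known.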

Additional observations from a re-analysis of the deposited data

Results flagged for a closer look

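Pfas read −0.60 on G0 replicate 2, while the other G0 arrays lay within 0.04 of 0. The gap to the next array was 0.99 of the range of the group (above Dixon's 95% critical value). It was 1 of 40 groups of 4 looked at in this way, where about 1 in 20 is expected by chance.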

How the results depend on the processing

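No gene of the 35 passed at an adjusted p under 0.05 in limma under any of the alternatives: no batch covariate, the spike-in batch, the 6 arrays with spike-ins, labelling batch 1 only, a replicate block, array medians set to 0, quantile normalization, no trend, array weights, the mean or the quietest of the probe sets, no probe sets with tied lowest values, and each array left out. The 12 genes chosen by rule for values by array kept their sign in all 240 values computed for them, with a lowest adjusted p of 0.142. Many of the 240 could not test the sign, because the setting left the difference itself unchanged. This held for no batch covariate, the spike-in batch, the replicate block, no trend and no probe sets with tied lowest values. Labelling batch 1 only and leaving out either array of labelling batch 2 gave the same estimate, so these were not separate checks. Umps, not among the 12 genes, was −0.49 on its representative probe set and 0.35 as the mean of its probe sets. The unadjusted count of 6 higher genes was 10 with the spike-in batch, 3 in labelling batch 1, 6 with the replicate block, and 1 to 9 without single arrays. The median difference of the 35 genes ran from 0.24 to 0.37. The sub-pathway medians without single arrays ran from 0.23 to 0.43 (serine), 0.16 to 0.33 (mitochondrial folate), −0.15 to 0.41 (cytosolic folate), 0.28 to 0.44 (methionine), 0.33 to 0.45 (PRPP and IMP), 0.13 to 0.29 (purine branches) and 0.12 to 0.19 (pyrimidines). Cytosolic folate was 0.72 with the quietest probe sets, 0.72 without genes of SE over 0.5 and 0.72 in spike-in batch 2. Within labelling batch 2, serine synthesis was −0.0261, mitochondrial folate −0.29, PRPP and IMP 0.51 and purine branches −0.00749. Within spike-in batch 2 the same medians were 0.26, 0.27, 0.42 and 0.22. Pairs changed sign as follows. With the mean of probe sets, Aldh1l1 minus Aldh1l2 was 0.23, Ctps minus Ctps2 0.0653 and Nme1 minus Nme2 −0.0236. With the quietest probe sets, Aldh1l1 minus Aldh1l2 was 0.83, Prps1 minus Prps2 0.075 and Ctps minus Ctps2 0.23. Without single arrays these ran from −1.15 to 0.26 (Aldh1l1), −0.455 to 0.0806 (Prps1), −0.56 to 0.21 (Ctps), −0.12 to 0.21 (Nme1) and −0.13 to 0.42 (Shmt1 minus Shmt2). The causes were not tested. The spike-in batch was known from earlier results, and the quietest probe set, the SE limit and the spike-in batch values were chosen after seeing the data.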
